A study of Mus musculus with 4 samples.

Results

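The serpin genes of the mouse were followed through 4 messenger RNA libraries of heart ventricles. They were chosen by name, as every listed gene whose symbol is Serpin with a clade letter from a to i, a number and an optional letter, and 64 of the 46603 listed genes met that rule (63 symbols, because Serpinb10 is listed under 2 identifiers). The treated KO library came from C57Bl6/J mice null for P2Y6, a G protein-coupled receptor for the nucleotide UDP, that were injected intraperitoneally each day for 7 days with 50 mg/kg of isoproterenol, a beta-adrenergic receptor agonist. The KO saline library came from P2Y6-null mice injected with saline on the same schedule, the WT isoproterenol library from treated wild-type mice, and the WT saline library from wild-type mice given saline. All mice were 8 to 12 weeks old. There was 1 library in each group, and it is not stated if it holds RNA of 1 heart or of pooled hearts.

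Most serpins are protease inhibitors that act once: the target protease cuts a flexible loop of the serpin, the serpin folds up around the cut, and the protease stays covalently trapped. Clade A members are mostly secreted, many by the liver, while clade B members mostly stay inside cells and guard them against their own proteases. Some members inhibit nothing, such as Serpinh1 (Hsp47), a chaperone of procollagen, and Serpinf1 (pigment epithelium-derived factor), a secreted inhibitor of vessel growth. In the mouse, the genes related to human SERPINA1, SERPINA3, SERPINB1, SERPINB6 and SERPINB9 have multiplied into local clusters.

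The libraries held 18771198 reads (KO isoproterenol), 22965087 reads (KO saline), 20721472 reads (WT isoproterenol) and 25637369 reads (WT saline). Levels are given in CPM, a gene's share of the library scaled to 1000000 reads, and a library with no read of a gene allows a level of up to 0.117 to 0.160 CPM (3 reads). P2ry6, the gene encoding P2Y6, was read at 0.533 CPM (KO isoproterenol) and 0.566 CPM (KO saline), against 5.89 CPM (WT isoproterenol) and 5.11 CPM (WT saline). The KO libraries thus held far fewer P2ry6 reads than the WT libraries, as their labels state. Cardiomyocyte markers were abundant in each library, with a summed level over 8 genes of 49939 CPM (KO isoproterenol), 72046 CPM (KO saline), 62289 CPM (WT isoproterenol) and 72539 CPM (WT saline).

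With 1 library per group, no comparison of 2 libraries has a test. Each ratio was scaled by TMM (trimmed mean of M values) and has a 95% interval that covers counting error only, so the spread between hearts is unknown and the ratios compare libraries. A gene was called when none of this interval was within 1.5-fold. Only the 14301 genes that averaged 10 reads or more per library were tested in this way. In a whole ventricle, a higher or lower level can come from more or fewer cells of a type or from more or less RNA per cell, and these cannot be told apart.

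Of the 64 serpin genes, 19 reached the read minimum, 18 were read below it and 27 had no reads in any library. The minimum was reached by 5 of 25 clade A genes, 7 of 28 clade B genes and 1 of 2 clade F genes. The single genes of clades D, G and H reached it, as did 1 of 2 clade I genes, and the single clade C gene, antithrombin (Serpinc1), did not. The 18 genes below the minimum had at most 10 reads in any library and no level above 0.533 CPM. They include 3 of the 6 genes for alpha-1-antitrypsin (Serpina1b, Serpina1d and Serpina1e), the main elastase inhibitor of plasma, and Serpinf2, the plasmin inhibitor.

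All serpin genes together took 0.184% of reads in the KO isoproterenol library (1837 CPM), 0.0568% in the KO saline library (568 CPM), 0.0754% in the WT isoproterenol library (754 CPM) and 0.0617% in the WT saline library (617 CPM). The highest total was that of the treated KO library, and the other 3 lay between 568 and 754 CPM. The CPM total was 1269 CPM higher in the treated than in the saline KO library. Of that difference, Serpina3n made up 27.6%, Serpinh1 21.2%, Serpinb1a 9.86% and Serping1 8.94%. In WT the difference between treated and saline libraries was 136 CPM, of which Serpina3n made up 45.1%.

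**Figure D1:**
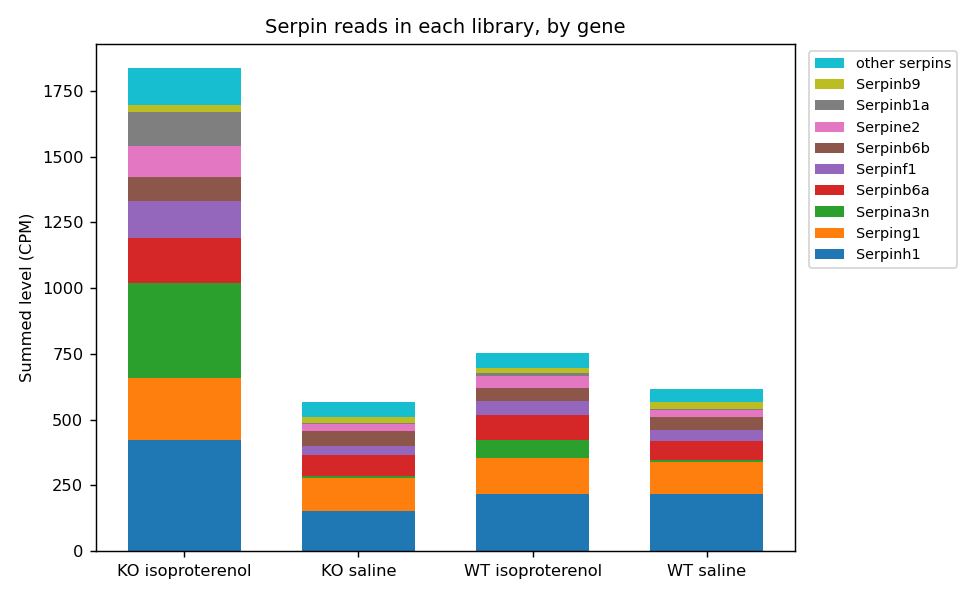
Stacked bars of the summed level of all serpin genes (CPM, linear axis from 0) in the 4 libraries, KO isoproterenol first, divided by gene. The treated KO library reaches 1837 CPM, with wide bands for Serpinh1 and Serpina3n, and the other 3 libraries lie between 568 and 754 CPM.

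Per kilobase of exon, which allows levels to be compared between genes, the order of the serpins was not the same in each library. Serpinh1 and Serping1 ranked first and second in the KO saline, WT isoproterenol and WT saline libraries. In the treated KO library Serpina3n (174.3 CPM per kb) and Serpinh1 (173 CPM per kb) had nearly equal levels at the top, followed by Serping1 (102 CPM per kb). Serpina3n ranked 8th in the KO saline library (4.58 CPM per kb), 3rd in the WT isoproterenol library (32.9 CPM per kb) and 9th in the WT saline library (3.06 CPM per kb). Serpinb1a had rank 5 in the treated KO library (55.2 CPM per kb), against rank 12 with KO saline (0.908 CPM per kb), rank 10 with WT isoproterenol (3.90 CPM per kb) and rank 11 with WT saline (1.22 CPM per kb).

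**Figure D2:**
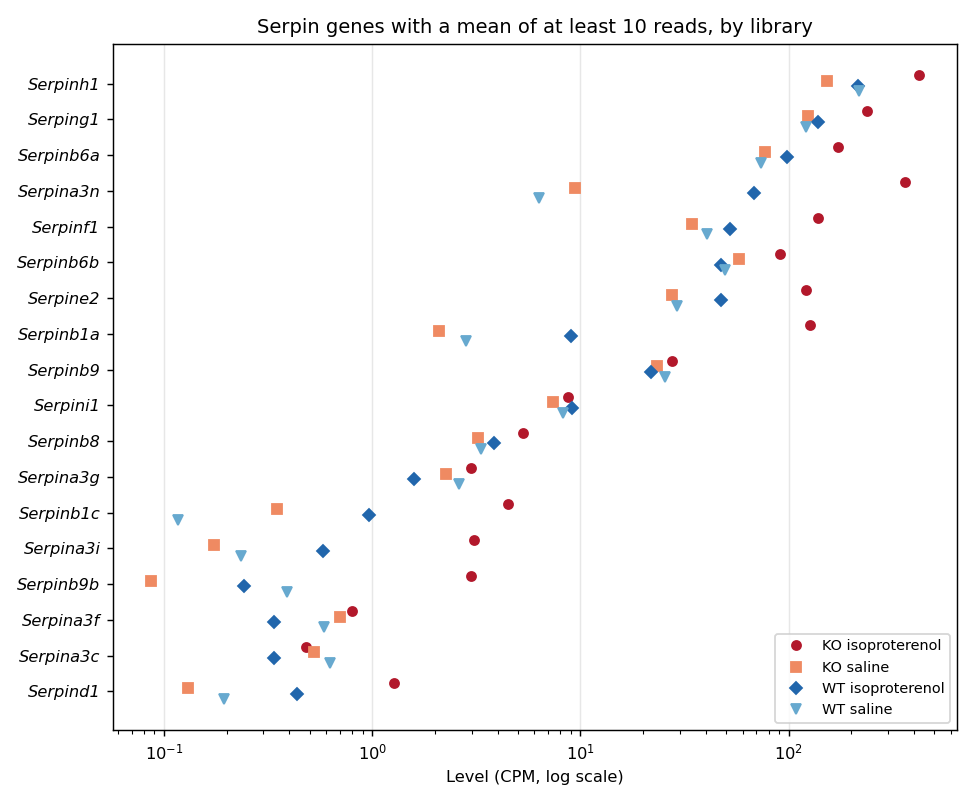
Level of 18 of the 19 serpin genes at the read minimum (CPM, log scale) in the 4 libraries, 1 point per library. Serpina3n spans 6.32 to 359.8 CPM and Serpinb1a 2.09 to 127 CPM, whereas Serpini1 and Serpinb9 stay within narrow ranges.

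The first comparison asked how ventricles without P2Y6 responded to isoproterenol. Of the 19 serpin genes, 12 were called higher in the treated KO library and 0 lower, while 7.09% of all tested genes were called higher and 4.22% lower. The median log2 ratio of the 19 genes was 1.14, against 0.00 for all tested genes. The called genes include secreted inhibitors (Serpina3n, Serpina3i, Serpind1, Serpine2, Serping1), intracellular clade B inhibitors (Serpinb1a, Serpinb1c, Serpinb6a, Serpinb9b) and both members named above that inhibit nothing. Serpina3i, Serpinb9b and Serpind1 reached the read minimum only through the treated KO library, so they had to differ, and the other 9 reached it without that library. Of 8 cardiomyocyte markers, 4 were called lower and 0 higher in this comparison (median log2 ratio -0.59). Between the treated KO and WT libraries 4 were lower and 0 higher (median -0.58), with 1.8% of all tested genes lower and 4.2% higher. With scaling by total counts, 2 markers were called lower in the KO response (median -0.41) and 1 between the treated libraries (median -0.36). Of the 14301 tested genes, 357 and 112 were then called lower in these comparisons. The part of these markers in the serpin values was not tested.

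The second comparison asked the same of WT ventricles. Here 4 of the 19 genes were called higher and 0 lower, with 0.86% of all tested genes called higher and 0.797% lower, and the median log2 ratio of the 19 was 0.28. These were Serpina3n, Serpinb1a, Serpinb1c and Serpine2, and all 4 were among the 12 called in KO. Serpine2 was not called when libraries were scaled by total counts (log2 ratio 0.70, 0.56 to 0.84). The difference between the 2 responses, which the design addresses directly, was called higher in KO for 7 serpin genes and lower for 0. Of all tested genes, 3.83% were called higher and 1.73% lower. The median log2 value of this difference over the 19 genes was 0.84. The 7 include Serpinb9b, which reached the read minimum only through the treated KO library.

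**Figure D3:**
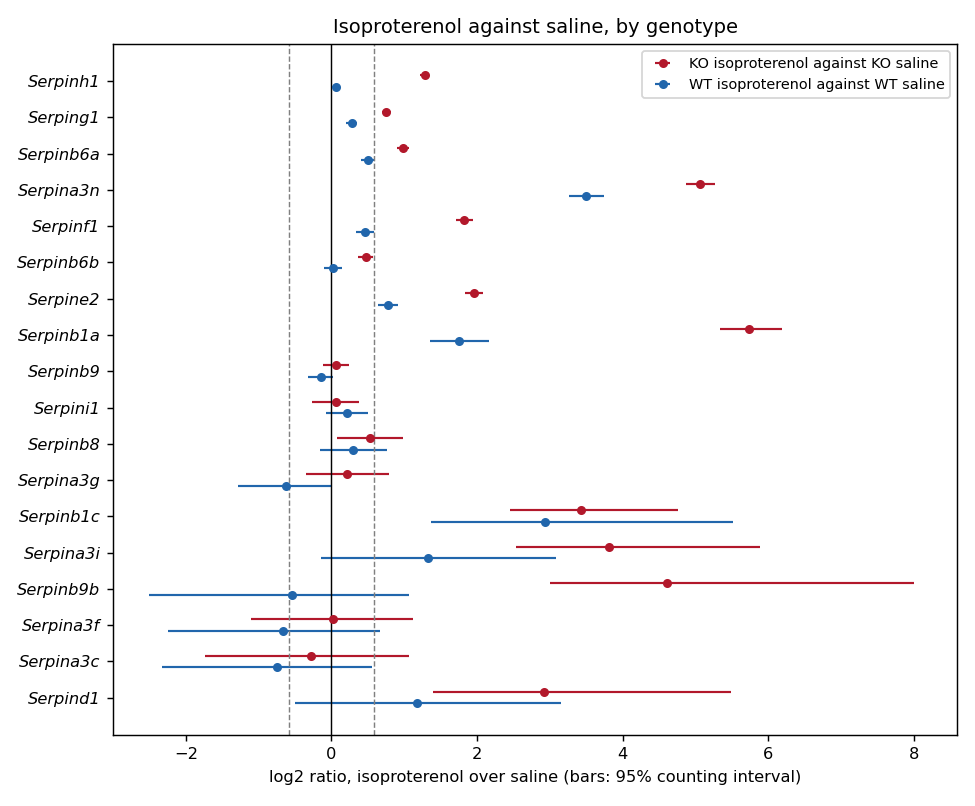
Log2 ratio of isoproterenol over saline for 18 of the 19 serpin genes, with KO libraries in red above WT libraries in blue for each gene. Bars are 95% counting intervals and dashed lines mark 1.5-fold; Serpinh1 and Serpinf1 lie beyond the line in KO and within it in WT, and genes with few reads have wide bars.

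Between the 2 treated libraries, 10 of the 19 serpin genes were called higher in KO than in WT and 0 lower, with 4.2% of all tested genes called higher and 1.8% lower. The 10 include Serpina3i and Serpinb9b, which reached the read minimum only through the treated KO library. Between the 2 saline libraries, 0 serpin genes were called in either direction, with 0.273% of all tested genes called higher and 0.217% lower. These comparisons share libraries with the responses above. Between the saline libraries the ratio of Serpina3n was 1.55 (1.26 to 1.91), and the level of Serpinh1 was 1.38-fold lower in KO (1.32 to 1.44). In no comparison were Serpina3c, Serpina3f, Serpina3g, Serpinb8, Serpinb9 and Serpini1 called.

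**Figure D4:**
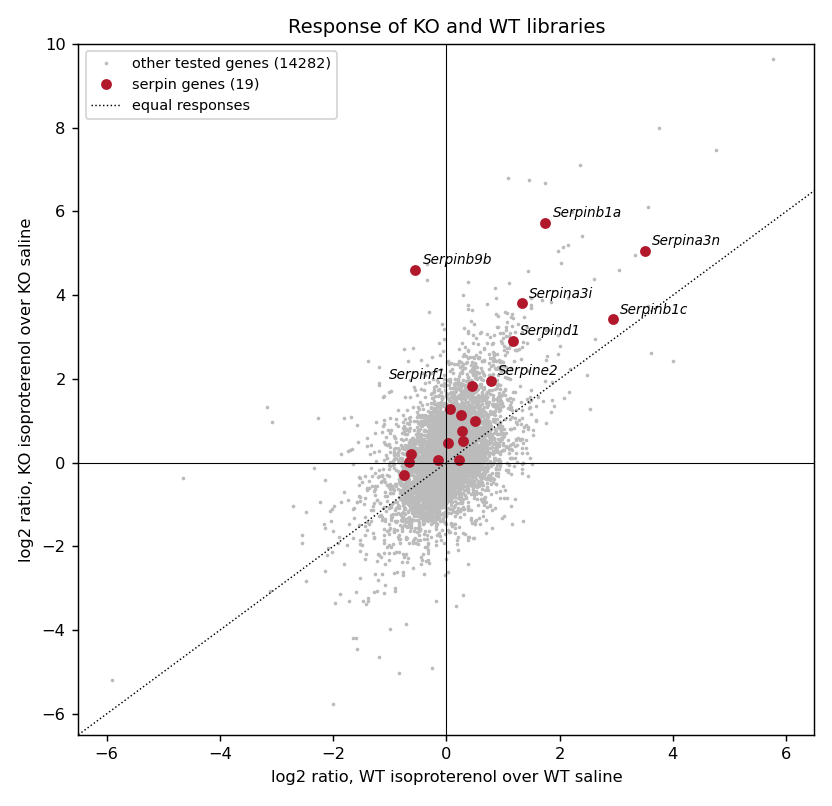
Log2 ratio of isoproterenol over saline in KO (vertical axis) against WT (horizontal axis) for all tested genes in grey and the 19 serpin genes in red, with the dotted line marking equal responses. Serpinb1a, Serpinb9b and Serpina3n stand above the dotted line, and 1 gene lies outside the axes.

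An additive fit over the 4 libraries used limma with a trend on log2(CPM + 1), with genotype and treatment as terms. The adjustment was Benjamini-Hochberg over all tested genes. With these terms, the 4 libraries leave 1 residual degree of freedom per gene, which holds the difference between the KO and WT responses. The fit thus has no error from replicates and counts that difference as error. In addition, limma draws each gene's variance toward a trend over all tested genes. Its p-values thus rest largely on other genes, and its CPM are scaled by total counts, without TMM. The fit called 7 of the 19 serpin genes higher with isoproterenol and 0 lower, against 1.69% and 0.881% of all tested genes. At an unadjusted p under 0.05 the counts were 12 higher and 0 lower, with 1166 higher and 699 lower of the 14301 tested genes. These 12 include Serpina3i, Serpinb9b and Serpind1, which reached the read minimum only through the treated KO library. The log2 difference was 4.17 for Serpina3n (adjusted p = 5.24e-08), 3.38 for Serpinb1a (adjusted p = 7.54e-04) and 1.39 for Serpine2 (adjusted p = 0.00211). It was 1.42 for Serpinb1c (adjusted p = 0.00604), 1.17 for Serpinf1 (adjusted p = 0.0128), 0.79 for Serpinb6a (adjusted p = 0.0228) and 1.08 for Serpina3i (adjusted p = 0.0493), each with more CPM in the isoproterenol library of both genotypes. Serpina3i is among the 7 called only through the treated KO library, which brought it to the read minimum. Its WT interval included no change (2.51-fold, 0.908 to 8.49). On recovered reads, edgeR's quasi-likelihood test called 1 serpin gene higher, Serpina3n (adjusted p = 0.0163), and 0 lower, against 0.105% and 0.0489% of all tested genes. At an unadjusted p under 0.05 it had 10 serpin genes higher, Serpina3i and Serpind1 among them, with 1187 of all tested genes higher. For genotype, limma called 0 serpin genes in either direction, and edgeR likewise 0. All tested genes had 0.042% called higher and 0.0559% lower with limma, and 0.014% and 0.00699% with edgeR. At an unadjusted p under 0.05, limma had 10 serpin genes higher, Serpina3i among them, and 0 lower, with 454 and 132 of all tested genes. For edgeR the counts were 5 higher and 0 lower, with 293 and 226 of all tested genes.

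Among secreted inhibitors, Serpina3n (ENSMUSG00000021091, chromosome 12, 104406729 to 104414329, GRCm38) inhibits granzyme B and is a mouse relative of human antichymotrypsin, a protein of the acute phase. It was read at 359.8 CPM with KO isoproterenol and 9.45 CPM with KO saline, against 67.8 CPM with WT isoproterenol and 6.32 CPM with WT saline. Both treated libraries were high and both saline libraries low, with the treated KO library above the treated WT library by 4.58-fold (4.32 to 4.85). The response in KO was 2.96 times that in WT (2.40 to 3.66).

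Serpina3n lies at one end of the Serpina cluster, 24 members within 0.80 Mb (chr12:103614786-104414329), of which 13 were read and 5, all Serpina3 genes, reached the minimum. Serpina3i was read at 3.09 CPM (58 reads) with KO isoproterenol and 0.174 CPM (4 reads) with KO saline, against 0.579 CPM (12 reads) with WT isoproterenol and 0.234 CPM (6 reads) with WT saline. The treated KO library was the highest, as for Serpina3n, at far fewer reads, with a KO ratio of 14.0 (5.79 to 59.3) and a ratio between the treated libraries of 4.46 (2.45 to 9.42). Serpina3g, an intracellular inhibitor of cathepsins also known as Spi2A, had 2.98 CPM (KO isoproterenol), 2.26 CPM (KO saline), 1.59 CPM (WT isoproterenol) and 2.61 CPM (WT saline). Serpina3f had 0.799, 0.697, 0.338 and 0.585 CPM and Serpina3c 0.479, 0.523, 0.338 and 0.624 CPM in the same order of libraries. For Serpina3g, Serpina3f and Serpina3c the treated WT library was the lowest of the 4 and the interval of the KO response included no change. The Serpina3 genes share sequence: of the 50-base stretches in their transcripts, 15.9% for Serpina3i, 15.5% for Serpina3g, 10.6% for Serpina3f, 6.90% for Serpina3n and 4.25% for Serpina3c also occur in other genes. How the counting treated such reads is not given in the sources used here, so the low Serpina3 values are uncertain, and a share of them from Serpina3n reads was not tested.

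**Figure D5:**
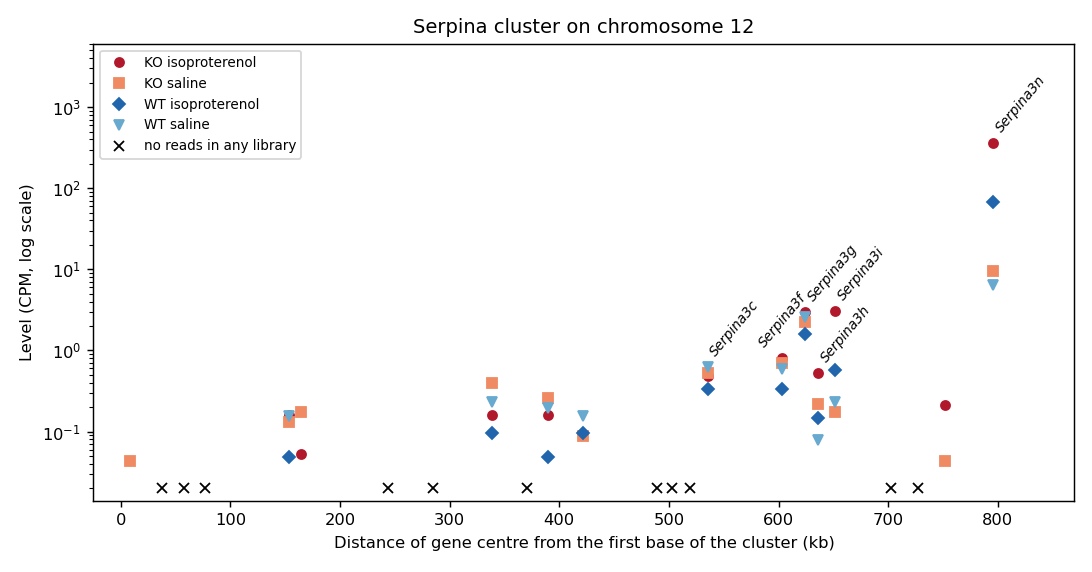
Level (CPM, log scale) of each member of the Serpina cluster in the 4 libraries, plotted by the distance of the gene's centre from the first base of the cluster in kb. Crosses at the bottom edge mark 11 members with no reads; Serpina3n, at the far end, has the most reads, and Serpina3i is also highest in the treated KO library, at 3.09 CPM.

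The promoters of 3 Serpina3 genes are shown because their sequences are related, while Serpina3n and Serpina3i were called higher in the treated KO library and Serpina3c, with few reads, was not called. The windows run from 250 bases before to 50 bases after the start of transcription (RefSeq, GRCm38.p6), for Serpina3n at chr12:104406458-104406757 on the plus strand, Serpina3c at chr12:104153823-104154122 on the minus strand and Serpina3i at chr12:104262872-104263171 on the plus strand. Capitals mark matches, searched on both strands, to 5 patterns. One was TATAAA, the TATA box. Another was TTCNNNGAA, the pattern of sites bound by STAT factors. Heat shock elements were searched as GAANNTTC and TTCNNGAA. Sites of AP-1 were searched as TGANTCA.
Serpina3n: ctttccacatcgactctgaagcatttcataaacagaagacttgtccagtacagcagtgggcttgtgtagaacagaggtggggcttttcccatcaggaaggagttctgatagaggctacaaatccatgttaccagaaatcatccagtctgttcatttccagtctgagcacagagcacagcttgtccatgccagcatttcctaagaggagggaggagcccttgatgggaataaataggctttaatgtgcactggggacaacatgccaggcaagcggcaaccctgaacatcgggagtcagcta
Serpina3c: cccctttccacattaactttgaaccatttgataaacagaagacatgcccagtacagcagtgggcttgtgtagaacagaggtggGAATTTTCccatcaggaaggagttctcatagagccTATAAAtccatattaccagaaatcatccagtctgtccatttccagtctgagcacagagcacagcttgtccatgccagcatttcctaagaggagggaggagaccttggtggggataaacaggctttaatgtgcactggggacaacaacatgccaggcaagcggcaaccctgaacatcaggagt
Serpina3i: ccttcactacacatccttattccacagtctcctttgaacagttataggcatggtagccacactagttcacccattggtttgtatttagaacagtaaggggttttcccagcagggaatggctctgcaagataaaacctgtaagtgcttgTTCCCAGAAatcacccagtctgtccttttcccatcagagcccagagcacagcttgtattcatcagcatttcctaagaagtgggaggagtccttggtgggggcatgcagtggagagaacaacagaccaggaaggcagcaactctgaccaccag
The Serpina3c and Serpina3n windows were identical at 275 of 306 aligned positions (89.9%), although Serpina3c had at most 0.624 CPM in any library. Serpina3i and Serpina3n were identical at 63.4% of aligned positions. The Serpina3n window held none of the 5 patterns. Serpina3c held GAANNTTC and TATAAA, and Serpina3i held TTCNNNGAA. Of all 32851 promoter windows of this length, 8.30% hold TTCNNNGAA, 7.81% TGANTCA, 7.86% GAANNTTC, 8.52% TTCNNGAA and 13.6% TATAAA. A promoter entry was found for 16 of the 19 serpin genes at the minimum. TTCNNNGAA occurred in 4 of them (Serpina3f, Serpina3g, Serpina3i and Serpinb6a), TATAAA in 3, GAANNTTC in 2, TGANTCA in 1 and TTCNNGAA in 1. These counts take a match in any window of a gene, and some genes have several windows, so they differ in kind from the shares per window.

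Other secreted serpins regulate thrombin and the proteases of fibrinolysis and complement. Serpine2 (protease nexin 1, an inhibitor of thrombin and of plasminogen activation) had 121 CPM with KO isoproterenol and 27.4 CPM with KO saline, against 47.5 CPM with WT isoproterenol and 29.2 CPM with WT saline. Both treated libraries lay above both saline libraries, by 3.88-fold in KO (3.56 to 4.25) and 1.72-fold in WT (1.56 to 1.89). The KO response of Serpine2 was 2.26 times that in WT (1.98 to 2.57). Serpind1 (heparin cofactor 2, a thrombin inhibitor) had 24 reads with KO isoproterenol, 3 with KO saline, 9 with WT isoproterenol and 5 with WT saline, for a KO ratio of 7.55 (2.62 to 44.8). The gene lies on the opposite strand of Pi4ka, which had 1563 to 1950 reads in each library, and since the strand setting of the counting is not given, its few reads cannot be told apart from reads of Pi4ka. Serping1 (C1 inhibitor, which blocks the first proteases of the complement and contact systems) had 237 CPM with KO isoproterenol and 124 CPM with KO saline, against 138 CPM with WT isoproterenol and 120.3 CPM with WT saline. Again the treated KO library was highest, 1.69-fold above KO saline (1.61 to 1.77).

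The partners of these inhibitors were taken from lists of known targets and pathway members. Of 17 tested coagulation and fibrinolysis genes (26 listed), 4 were called higher and 1 lower in the KO response, against 7.09% and 4.22% of all tested genes. In WT 0 of the 17 were called in either direction, with 0.86% of all tested genes called higher and 0.797% lower. Between the saline libraries 0 were called in either direction, with 0.273% of all tested genes higher and 0.217% lower. The median log2 ratios of the 17 genes were 0.47 in KO and 0.05 in WT. Among the 4 of these with the highest levels, Lrp1, an endocytic receptor that clears serpin complexes, had 375 CPM (KO isoproterenol), 187 CPM (KO saline), 219.5 CPM (WT isoproterenol) and 198 CPM (WT saline). Anxa2, which with S100a10 holds plasminogen at cell surfaces, had 204 CPM (KO isoproterenol), 60.1 CPM (KO saline), 82.4 CPM (WT isoproterenol) and 71.8 CPM (WT saline). Both were called higher in the KO response, Anxa2 by 2.98-fold (2.80 to 3.17). Tfpi, an inhibitor of the tissue factor pathway, was called lower with 47.1 CPM (KO isoproterenol) against 71.4 CPM (KO saline). With scaling by total counts, 5 of the 17 were called higher and 0 lower in the KO response, so the Tfpi call was lost. Of the 14301 tested genes, 1445 were then called higher and 357 lower. Of 3 tested genes for proteases bound by C1 inhibitor (8 listed), Masp1 was called higher in both responses, by 2.73-fold in KO (2.31 to 3.25) and 2.75-fold in WT (2.26 to 3.38), with a median log2 ratio of the 3 of 0.67 in KO and 0.16 in WT.

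Serpinh1 (ENSMUSG00000070436, chromosome 7, 99345376 to 99353239) had the highest mean level per kb of all serpin genes. It was read at 422 CPM with KO isoproterenol and 153 CPM with KO saline, against 215 CPM with WT isoproterenol and 218 CPM with WT saline. The treated KO library was the highest and the KO saline library the lowest, with both WT libraries between them and nearly equal. The KO ratio was 2.43 (2.33 to 2.53), and the WT ratio was 1.04, with an interval that reached from no change to 1.08, and its direction turned with scaling by total counts (log2 ratio 0.06 with TMM and -0.02 with total counts). The KO response was 2.34 times that in WT (2.21 to 2.47). Serpinh1 lies 1.58 Mb from P2ry6 on chromosome 7.

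Of 19 tested genes for procollagen chains and their partners in the endoplasmic reticulum (20 listed), 12 were called higher in the KO response. In the WT response 5 were higher, and 0 were lower in either, with median log2 ratios of 1.04 in KO and 0.21 in WT. Of all tested genes, 7.09% were called higher and 4.22% lower in the KO response, and 0.86% higher and 0.797% lower in the WT response. The difference of responses was called higher in KO for 12 of the 19, against 3.83% of all tested genes. Col3a1, a fibrillar collagen chain, had 3815 CPM (KO isoproterenol) and 300.1 CPM (KO saline), against 1172 CPM (WT isoproterenol) and 478 CPM (WT saline). Col3a1 was thus called higher in both responses, by 11.2-fold in KO (10.9 to 11.5) and 2.59-fold in WT (2.53 to 2.65), whereas Serpinh1 was called in KO alone. Fibroblast markers had a summed level over 9 genes of 2746 CPM (KO isoproterenol), 2245 CPM (KO saline), 2408 CPM (WT isoproterenol) and 2475 CPM (WT saline), with 5 of 9 called higher and 1 lower in the KO response and 2 higher in the WT response. Their part in the Serpinh1, Serpinf1 and collagen values was not tested.

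Serpinf1 was read at 138 CPM with KO isoproterenol and 34.2 CPM with KO saline, against 52.5 CPM with WT isoproterenol and 40.3 CPM with WT saline. Here the treated KO library stood far above the other 3, with a KO ratio of 3.55 (3.28 to 3.85) and a WT ratio of 1.37 (log2 0.46, 0.33 to 0.58) that was not called. Its response in KO was 2.58 times that in WT (2.30 to 2.90).

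Among the intracellular inhibitors, Serpinb1a (ENSMUSG00000044734, chromosome 13, 32842092 to 32851185) blocks elastase, cathepsin G and proteinase 3, the serine proteases of neutrophil granules. It was read at 127 CPM with KO isoproterenol and 2.09 CPM with KO saline, against 8.98 CPM with WT isoproterenol and 2.81 CPM with WT saline. Both saline libraries were near the same low level, the treated WT library was 3.36-fold above its saline library (2.56 to 4.50), and the treated KO library was 12.2-fold above the treated WT library (10.5 to 14.3). The KO response was 15.8 times that in WT (10.7 to 23.4). Serpinb1c, its neighbour and paralogue, had 84 reads with KO isoproterenol and 8 with KO saline, against 20 with WT isoproterenol and 3 with WT saline, and was called in both responses, by 10.7-fold in KO (5.49 to 27.1) and 7.66-fold in WT (2.59 to 45.8). Of their 50-base stretches, 2.81% for Serpinb1a and 6.28% for Serpinb1c also occur in other genes.

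The genes of the neutrophil proteases themselves were scarcely read. Only RNA was measured, so the amounts of these proteases as proteins are not known. Ctsg (cathepsin G) had no reads in any library, Elane (elastase) was above 0 in the treated KO library alone at 0.0533 CPM, and Prtn3 (proteinase 3) had no level above 0.145 CPM. These 3 were singled out after their values were seen, as the known targets of Serpinb1a. Neutrophil markers had a summed level over 9 genes of 4.53 CPM (KO isoproterenol), 3.27 CPM (KO saline), 5.07 CPM (WT isoproterenol) and 3.28 CPM (WT saline). Of the 9, only Ly6g was at 0 in all libraries. The 3 tested markers had median log2 ratios of 0.48 in KO and 0.86 in WT, and 0 were called higher in either response. Of 6 tested leukocyte and mast cell serine proteases (15 listed), 0 were called higher in either response. In the KO response 1, Gzmm, a granzyme, was called lower, with 2.77 CPM (KO isoproterenol) against 6.31 CPM (KO saline). Of all tested genes, 7.09% were called higher and 4.22% lower in the KO response, and 0.86% higher in the WT response.

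Serpinb9b, a paralogue of the granzyme B inhibitor Serpinb9, had 56 reads with KO isoproterenol and 2 with KO saline, against 5 with WT isoproterenol and 10 with WT saline. Only the treated KO library was high, and the ratio in KO was 24.4 with a wide interval (7.98 to 255). Serpinb9 itself had 27.5 CPM (KO isoproterenol), 23.2 CPM (KO saline), 21.8 CPM (WT isoproterenol) and 25.6 CPM (WT saline). Its 4 levels lay close together, with ratios of 1.04 in KO and 1.11-fold lower in WT. Serpinb6a, whose human relative inhibits cathepsin G, had 173 CPM with KO isoproterenol and 77.1 CPM with KO saline, against 98.2 CPM with WT isoproterenol and 73.2 CPM with WT saline. Both treated libraries were the higher of their pair, by 1.98-fold in KO (1.87 to 2.10), which was called, and 1.42-fold in WT (1.33 to 1.51), which was not. Serpinb6a overlaps Nqo2 (530 to 925 reads) and Ripk1 on the opposite strand. Serpinb6b had 91.2 CPM with KO isoproterenol and 58.0 CPM with KO saline, against 47.5 CPM with WT isoproterenol and 49.5 CPM with WT saline. It was called between the 2 treated libraries alone, 1.66-fold higher in KO (1.53 to 1.79).

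Serpinb1a, Serpinb1c, Serpinb6a, Serpinb6b, Serpinb9 and Serpinb9b lie in 1 cluster of 15 clade B members (chr13:32842092-34002794), of which 8 were read. The clade B cluster of 12 members on chromosome 1 (chr1:106861173-107610484) had 5 read members, and only Serpinb8, an inhibitor of furin in human cells, reached the minimum. Serpinb8 had 5.27 CPM (KO isoproterenol), 3.22 CPM (KO saline), 3.86 CPM (WT isoproterenol) and 3.32 CPM (WT saline). Serpini1 (neuroserpin, an inhibitor of tissue plasminogen activator) had 8.68 CPM (KO isoproterenol), 7.36 CPM (KO saline), 9.07 CPM (WT isoproterenol) and 8.27 CPM (WT saline). Neither gene was called in any comparison.

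Intracellular serpins also meet the cysteine cathepsins, proteases of lysosomes. Of the 10 tested cathepsin genes, 4 were called higher and 0 lower in the KO response (7.09% and 4.22% of all tested genes). In the WT response 0 were called in either direction (0.86% higher and 0.797% lower of all tested genes). Between the treated libraries 4 of the 10 were higher in KO (4.2% of all tested genes), and their median log2 ratios were 0.83 in KO and 0.12 in WT. Ctsb (cathepsin B), which had the most reads of them, was read at 1094 CPM with KO isoproterenol and 486 CPM with KO saline, against 580.2 CPM with WT isoproterenol and 494 CPM with WT saline. The treated KO library was the highest, 1.98-fold above KO saline (1.94 to 2.03). Macrophage markers had a summed level over 10 genes of 572 CPM (KO isoproterenol), 249 CPM (KO saline), 257 CPM (WT isoproterenol) and 285 CPM (WT saline), with 7 of 10 called higher in the KO response and 1 in the WT response. Their part in the clade B and cathepsin values was not tested.

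Many serpins of plasma come from the liver, and several respond to cytokines that signal through gp130. Of 11 tested acute phase and gp130 target genes (18 listed), 5 were called higher and 0 lower in the KO response (7.09% and 4.22% of all tested genes). In the WT response 0 were called in either direction (0.86% higher and 0.797% lower of all tested genes). Median log2 ratios were 0.80 in KO and 0.09 in WT. The 5 were Lbp, Osmr, Lcn2, Hp and Saa3, named after their values were seen. Il6st (gp130 itself), with the most reads in the list, had 233 CPM (KO isoproterenol), 222 CPM (KO saline), 180.4 CPM (WT isoproterenol) and 211 CPM (WT saline), and Stat3, its transcription factor, had 187 CPM (KO isoproterenol), 156 CPM (KO saline), 158 CPM (WT isoproterenol) and 162 CPM (WT saline). Neither was called in any comparison. Hepatocyte markers had a summed level over 10 genes of 10.2 CPM (KO isoproterenol), 6.23 CPM (KO saline), 11.2 CPM (WT isoproterenol) and 10.7 CPM (WT saline). Of the 10, only Apob was at 0 in all libraries, and Alb (albumin) and Tat were at 0 in both KO libraries.

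Protease inhibitors outside the serpin family were read for comparison. Of 17 tested (24 listed), 5 were called higher and 3 lower in the KO response (7.09% and 4.22% of all tested genes). With scaling by total counts these were 7 higher and 2 lower, against 1445 and 357 of the 14301 tested genes. In the WT response 2 were called higher and 0 lower (0.86% and 0.797% of all tested genes). Median log2 ratios were 0.36 in KO and 0.00 in WT. Cst3 (cystatin C, an inhibitor of cathepsins) had 715 CPM with KO isoproterenol and 357.5 CPM with KO saline, against 483 CPM with WT isoproterenol and 400.0 CPM with WT saline. Pi16, a secreted protein of fibroblasts, had 193 CPM with KO isoproterenol and 62.5 CPM with KO saline, against 116 CPM with WT isoproterenol and 74.2 CPM with WT saline. Both were highest in the treated KO library, and Pi16 was called in both responses, by 2.72-fold in KO (2.56 to 2.90) and 1.65-fold in WT (1.55 to 1.75). The WT call of Pi16 was lost with scaling by total counts, where 1 of the 17 was called higher (99 of the 14301 tested genes). Timp2 and Timp3, inhibitors of matrix metalloproteinases and like Cst3 and Pi16 among the 4 of the list with the most reads, were not called in any comparison.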

How the data were processed

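Messenger RNA of heart ventricles was sequenced from 4 groups of mice after TruSeq stranded mRNA preparation (per the labels' protocols), with 1 library per group. The authors deposited CPM for 46603 Ensembl genes. HTSeq and the build GRCm38.p4 (mm10) are named by the submitters' processing notes, with no version or settings; the aligner and annotation release are not given here. The columns headed by genotype alone were taken as saline. All deposited CPM values were whole multiples of 1 read within 0.01 reads (100% of values), so reads were recovered. Recovered reads carry no molecular identifiers, and the intervals and the 3-read floor cover no more than counting error.

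Ratios used TMM (edgeR 4.0.16), 0.5 added to each count and an exact conditional 95% interval; the difference of responses has a 95% counting interval from the 4 counts. The additive fit used limma 3.58.1 because the unit is CPM, with edgeR as an alternative. Scaling by total counts and by DESeq2 1.42.0 size factors, a 2-fold threshold, no read minimum, ratios without intervals and a pseudocount of 0.1 were also tried. The code was tested on simulated data. Positions, exon lengths and shared 50-base stretches came from GENCODE M21 (GRCm38), which held 63 of 64 members and may differ from the authors' release; promoters came from RefSeq.

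The members and lists were chosen with earlier results of these data known. The rule for named genes took each serpin at the read minimum, P2ry6 and up to 4 members per list with the highest mean CPM. A gene that the rule takes in is not reported here, though it is part of the counts and totals.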

Additional observations from a re-analysis of the deposited data

Results flagged for a closer look

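For 4 serpin genes the treated library lay above the saline library in KO and below it in WT, under each of the 3 scalings, and this difference between genotypes was not tested, since each response rests on 1 pair of libraries. For Serpinb9b the log2 ratio was 4.61 in KO and -0.55 in WT, a difference of 5.15, and the WT interval included no change. For Serpina3g it was 0.21 in KO and -0.62 in WT, a difference of 0.84, and the KO interval included no change. For Serpinb9 it was 0.06 in KO and -0.15 in WT, a difference of 0.21. For Serpina3f it was 0.02 in KO and -0.66 in WT, a difference of 0.68. With TMM both intervals of Serpinb9 and both of Serpina3f included no change. With total counts both Serpinb9 intervals excluded it, at 0.07 to 0.42 in KO and -0.41 to -0.06 in WT.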

How the results depend on the processing

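No paired analysis was possible because each group held 1 library, and for the same reason no library could be left out of a comparison. Over 95 values (19 genes in 5 comparisons), DESeq2 size factors changed 0 calls and the 2-fold threshold lost 7. Scaling by total counts gained 5 and lost 1 (Serpine2 in the WT response). Dropping the read minimum could not change these calls, because the ratios and threshold of the 19 genes stay the same. No called value changed direction, while 4 uncalled values did so with total counts (Serpinh1 and Serpinb6b in the WT response, Serpinb8 between the saline libraries and Serpini1 in the difference) and 0 with DESeq2 size factors. Without intervals 16 calls were gained: serpin genes lower in the WT response then numbered 3 (599 of all 14301 tested genes), those higher and lower between the saline libraries 2 and 1 (368 and 464 of all), and those with the higher response in KO 11 (1948 of all). In the additive fit, genotype called 3 serpin genes higher with a pseudocount of 0.1 (0.315% of all genes) and 5 with no read minimum (0.668%). Treatment called 9 higher with a pseudocount of 0.1 (2.94%), 12 of 37 with no read minimum (2.62%) and 1 with edgeR (0.105%). The causes were not tested. Scaling by total counts shifted the median log2 ratio of all tested genes by 0.18 in the KO response, -0.08 in the WT response, 0.21 between the treated libraries and 0.26 in the difference of responses. It moved the share of all calls that were higher to 80.2% from 62.7% with TMM in the KO response, to 40.6% from 51.9% in the WT response, to 90.3% from 69.9% between the treated libraries and to 92.6% from 68.8% in the difference. Depth limits Serpinb9b, Serpina3i, Serpinb1c, Serpind1, Serpina3f and Serpina3c most, and the spread between hearts is unknown for all genes.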
